A study of Homo sapiens with 5 samples.

Results

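ATF3 binding was examined at 10 genes of the integrated stress response: the regulators ATF4, ATF5, CEBPB, DDIT3 and XBP1, the feedback genes PPP1R15A and TRIB3, and the effectors ASNS, CHAC1 and SLC7A11. They were chosen by name from the 20136 protein-coding genes of the annotation. No measured value served as a cut, but earlier results of these data were known. For each gene, the peaks of 5 lists were taken from 20 kb upstream of its outermost annotated transcription start site (TSS) to its end on hg19. This gave 21 of the 33966 ATF3 peaks before treatment and 36 of the 70702 ATF3 peaks after treatment. The peaks fell into 37 separate sites.

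The lists come from ChIP-seq, in which DNA bound by a protein is precipitated with an antibody and sequenced, in HCT116, a human colon cancer cell line. There was 1 library per condition and there were no replicates. ATF3 was precipitated from ATF3-WT cells given DMSO, the solvent (ATF3-Ctrl), from ATF3-WT cells given 1.5 μM of camptothecin for 4 h (called ATF3-CPT), and, as ATF3-KO, from knockout cells given DMSO. p53 was precipitated from p53-WT cells given 1.5 μM of camptothecin for 4 h (p53-CPT) and from p53-KO cells given DMSO (p53-KO), so that these 2 libraries differ in genotype and in treatment. Camptothecin (CPT) is a topoisomerase I inhibitor that breaks DNA. The ATF3-KO cells were a clonal line in which both alleles had been targeted in exon 3 with a recombinant adeno-associated virus, and no ATF3-KO library after CPT was analysed here. All cells were cross-linked with DSG and then with formaldehyde.

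The integrated stress response begins when a kinase phosphorylates the translation factor eIF2alpha. General translation then falls, while the mRNA of ATF4, and those of ATF5, DDIT3 and PPP1R15A, are still translated owing to their upstream reading frames. ATF4 activates genes of amino acid supply, redox balance and cell death, often together with a C/EBP partner at a composite element that joins part of a C/EBP site to part of an ATF site. ATF3 is itself a target of ATF4, and it binds DNA as a dimer at ATF/CRE and AP-1 sequences.

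The ATF3 libraries held between 12820520 and 15457013 tags, and the p53 libraries 3169743 (p53-CPT) and 1984941 (p53-KO). Levels are given as the normalized tag count, which is the tags in a peak per 10000000 tags of the library. In this unit a single tag counted 0.772 before treatment and 0.647 after it. Peaks held 5.6% of the tags in ATF3-Ctrl, 12.76% in ATF3-CPT and 0.56% in ATF3-KO. The lists hold no peak with a findPeaks score, which counts at most 1 tag per position, under 9, 9 and 11 in these libraries, so weaker binding was not detectable.

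Every one of the 10 genes had an ATF3 peak in its window before treatment, against 65.2% of all protein-coding genes, and every one had a peak after CPT, against 81.0%. Gene windows of all genes were longer, with a median of 47216 bp against 25191 bp for the 10 genes. Among the 10363 genes with windows between 21838 and 54724 bp, a range that holds every one of the 10 but SLC7A11 with its 98252 bp, 59.7% had an ATF3-Ctrl peak and 76.6% an ATF3-CPT peak. Within 2 kb of a start site of the gene, 9 of the 10 had a peak in ATF3-Ctrl, against 38.7% of all genes, and 10 of 10 in ATF3-CPT, against 53.9%. The exception before treatment was ATF4 itself. In ATF3-KO cells none of the 10 genes had a peak with the ATF3 antibody, against 11.4% of all genes. Of the 21 ATF3-Ctrl sites, 17, at 9 of the 10 genes, had a score at or over the 11 that the ATF3-KO list required. A peak with the p53 antibody was listed at 1 gene, SLC7A11, in p53-CPT, against 21.8% of all genes. The same gene had such a peak in p53-KO, whose cells lack p53, against 17.5%. Among the genes with windows of like length these shares were 12.4% and 8.4%, and for ATF3-KO 12.5%.

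**Figure D1:**
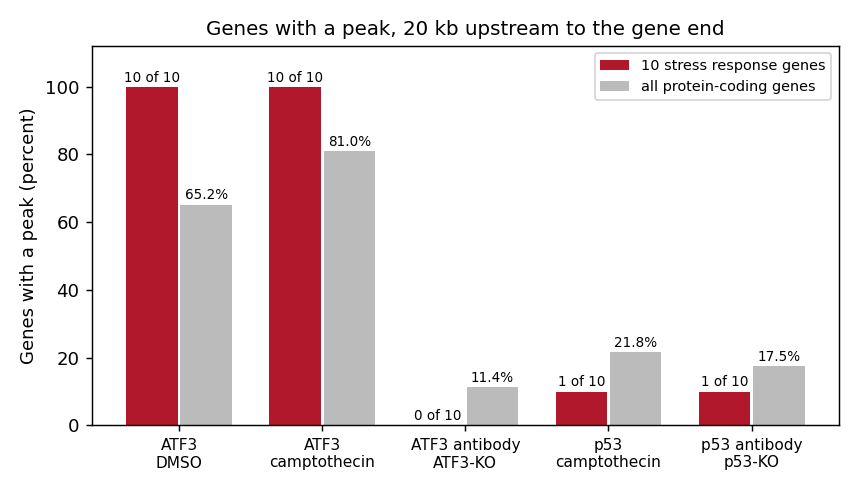
Bars give the percent of genes with a peak from 20 kb upstream of the start site to the gene end, for the 10 stress response genes and for all 20136 protein-coding genes, in each of the 5 libraries. The 10 genes stand at 10 of 10 in both ATF3 libraries from ATF3-WT cells, at 0 of 10 in ATF3-KO and at 1 of 10 in both p53 libraries.

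Of the 37 ATF3 sites, 20 were in both lists, 16 in ATF3-CPT only and 1 in ATF3-Ctrl only. Each of the 10 genes had at least 1 site in both lists. The 16 sites listed after CPT only, called new here, lay at 6 genes: ATF4, ATF5, CEBPB, XBP1, TRIB3 and SLC7A11. Across the genome, 79.8% of the peaks in the ATF3-Ctrl list were also in the ATF3-CPT list, and in the other direction the share was 38.3%. None of the 37 sites overlapped an ATF3-KO peak. The new sites were weak, with a median of 8.1 and a highest value of 25.2, whereas the 20 sites in both lists had a median of 37.5 in ATF3-CPT. The median of all sites found only in ATF3-CPT was 8.4. The score threshold of 9 corresponds to a normalized tag count of 6.95 in ATF3-Ctrl and 5.82 in the deeper ATF3-CPT library. New sites under 6.95, such as the pair at CEBPB with 5.8, could be unlisted in ATF3-Ctrl without a change in level.

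**Figure D2:**
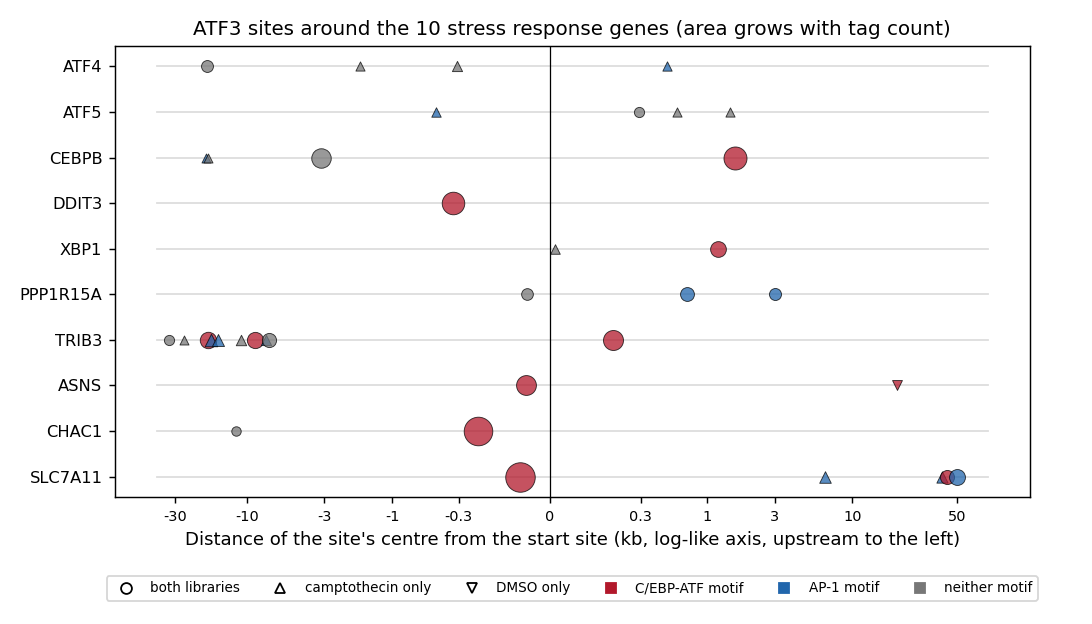
Each row is a gene and each symbol an ATF3 site, placed by the distance in kb of its centre from the start site on a log-like axis, with circles for both libraries, upward triangles for ATF3-CPT only and a downward triangle for ATF3-Ctrl only. Symbol area grows with the higher normalized tag count of the site, and the largest circles, at CHAC1 and SLC7A11, lie just upstream of the start and carry the C/EBP-ATF motif.

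The sites differed in the sequence under them. The sites were searched on both strands for TGATGNAA (the C/EBP-ATF composite element, where N is any base), TGACTCA (AP-1) and TGACGTCA (ATF/CRE), none of which can contain another. A C/EBP-ATF match lay in 11 sites of 7 genes: DDIT3, CEBPB, XBP1, TRIB3, ASNS, CHAC1 and SLC7A11. An AP-1 match lay in 11 sites of 6 genes, and an ATF/CRE match in 1 site, at PPP1R15A. Of the 11 sites with the composite element, 10 were in both lists, 1 was the site found in ATF3-Ctrl only, and none was among the 16 new sites. Of the 11 sites with AP-1, 8 were among the 16 new sites and 3 were in both lists. Over all ATF3-CPT peaks of the genome, 7.33% held the composite element and 40.6% held AP-1. These shares were not counted for peaks found after CPT only, so the split is not shown to be particular to the 10 genes. As exact matches within the peak, no site held both motifs. Within 200 bp around the centre 1 site held both, the SLC7A11 intron 6 site with AP-1, and with 1 mismatch allowed 7 sites did.

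The composite elements are shown first because they mark the strongest sites before treatment. Each line gives 30 bases of hg19 on the strand that reads as the motif, 5′ to 3′, with the motif in capitals.
DDIT3, chr12:57914585-57914614, plus strand: gggggcggggaTGATGCAAtgtttggcaac
CHAC1, chr15:41245449-41245478, minus strand: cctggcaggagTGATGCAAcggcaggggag
SLC7A11, chr4:139163561-139163590, plus strand: cagctaaatgaTGATGCAAattctccaggt
SLC7A11, chr4:139163580-139163609, minus strand: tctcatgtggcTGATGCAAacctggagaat
SLC7A11 intron 6, chr4:139120868-139120897, minus strand: cattgagtttaTGATGCAAgtctgtgacta
ASNS, chr7:97501770-97501799, minus strand: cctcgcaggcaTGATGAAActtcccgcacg
ASNS exon 13, chr7:97481757-97481786, minus strand: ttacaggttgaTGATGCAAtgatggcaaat
CEBPB 3′ UTR, chr20:48808922-48808951, plus strand: ggtttcgaagtTGATGCAAtcggtttaaac
TRIB3 exon 1, chr20:361525-361554, minus strand: cccggtccgggTGATGCAAaccggagctaa
TRIB3 upstream, chr20:343233-343262, plus strand: cagggcccctgTGATGGAAgaactgacagg
TRIB3 upstream, chr20:352613-352642, plus strand: gcaaggttttcTGATGCAActggctgagtg
XBP1 intron 1, chr22:29195413-29195442, minus strand: aaagttccttaTGATGCAAgatgaatagtg
XBP1 intron 1, chr22:29195344-29195373, minus strand: aggtggacggaTGATGCAAtataggagaga
The 30 bases of TRIB3 exon 1 occurred 3 times in the same peak, 33 bp apart, and at SLC7A11 and XBP1 a pair of matches lay in 1 peak.

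The AP-1 matches are shown for the 3 shared sites and for the new sites of 4 genes.
PPP1R15A intron 1, chr19:49376398-49376427, plus strand: ttccgttgctaTGACTCAtagtcacgcccg
PPP1R15A intron 2, chr19:49378683-49378712, minus strand: tctctatctatcTGACTCActgaaggaaga
SLC7A11 intron 6, chr4:139113403-139113432, plus strand: ggaggggcaagTGACTCAttcttgcaaaca
SLC7A11 intron 2, new, chr4:139156963-139156992, minus strand: gacagagtcaaaTGACTCAtttccttatat
SLC7A11 intron 6, new, chr4:139124040-139124069, plus strand: tgtccccaggcTGACTCAtatcctgcactg
TRIB3 upstream, new, chr20:344056-344085, plus strand: gacatgcagagTGACTCAgccagtgtgagc
TRIB3 upstream, new, chr20:345740-345769, plus strand: tctgtcctggaTGACTCAgcaagccttgca
TRIB3 upstream, new, chr20:353921-353950, minus strand: gtagggtgatcaTGACTCActgtagcctca
ATF5, new, chr19:50431964-50431993, plus strand: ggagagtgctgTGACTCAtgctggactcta
ATF4 intron 1, new, chr22:39917069-39917098, minus strand: accgcccgccctTGACTCAcgcccgcgccg
The ATF/CRE match was in the PPP1R15A promoter.
PPP1R15A, chr19:49375609-49375638, plus strand: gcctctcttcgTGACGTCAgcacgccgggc

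Over all ATF3-Ctrl peaks, 19.7% held the C/EBP-ATF element and 31.0% held AP-1, and over all ATF3-CPT peaks the shares were 7.33% and 40.6%. Windows of the same width 1000 bp to the side held them in 2.27% and 2.01% (ATF3-Ctrl) and in 2.14% and 2.08% (ATF3-CPT). ATF/CRE was rarer, in 1.93% and 1.41% of peaks. A match is a description of the sequence and does not show which protein dimer bound there.

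To ask how CPT moved ATF3 at sites present in both lists, the tags of the 2 libraries were compared by a conditional exact binomial test, with Benjamini-Hochberg adjustment over all 27104 shared sites of the genome. The test compares these libraries and not the conditions, and its intervals cover counting error only. Across the genome, 44.0% of shared sites had more tags after CPT and 2.82% had fewer at an adjusted p under 0.05, with a median log2 change of 0.84. At the 10 genes, 6 of the 20 shared sites had more tags and 7 had fewer, and the median log2 change was 0.19. When changes were taken relative to the genome median, 2 sites had more tags and 9 had fewer, and with the findPeaks score 5 had more and 2 had fewer. Of the calls across the genome, 94.0% were increases on tags per library and 42.9% relative to the median.

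By exact match, the 7 sites with fewer tags all held the composite element, and the 3 with AP-1 all had more tags. Of the 7 sites with neither as an exact match, 3 had more tags and 4 passed in neither direction. Sites had to be in both lists to be compared. The 3 AP-1 sites had 9, 9 and 16 tags in ATF3-Ctrl, which is weak. A marked fall there could have taken them off the ATF3-CPT list, so weak shared sites could hardly be seen to fall. The median log2 change was -0.45 at the 10 sites with the composite element and 2.01 at the 3 sites with AP-1. Over the genome, 3681 shared sites with the composite element had a median of -0.06 (15.3% with more tags and 8.42% with fewer) and 10834 with AP-1 a median of 1.26 (68.2% and 0.0831%). The 12834 shared sites with none of the motifs had a median of 0.57. By level, a division made after the values had been seen and on the count that is also the denominator of the change, the medians under a normalized tag count of 50 in ATF3-Ctrl were -0.05 with the composite element and 1.28 with AP-1, and at 50 or more they were -0.12 and 0.48. The 10 genes' 8 sites at 50 or more in ATF3-Ctrl all held the composite element, and their median of -0.59 compares with -0.07 for all 1241 sites at that level. Of the 8, 7 had fewer tags and 0 had more. Over the genome, 30.4% of the 401 composite element sites at 50 or more had fewer tags and 17.5% had more. For all 1241 sites these shares were 31.1% and 26.3%.

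**Figure D3:**
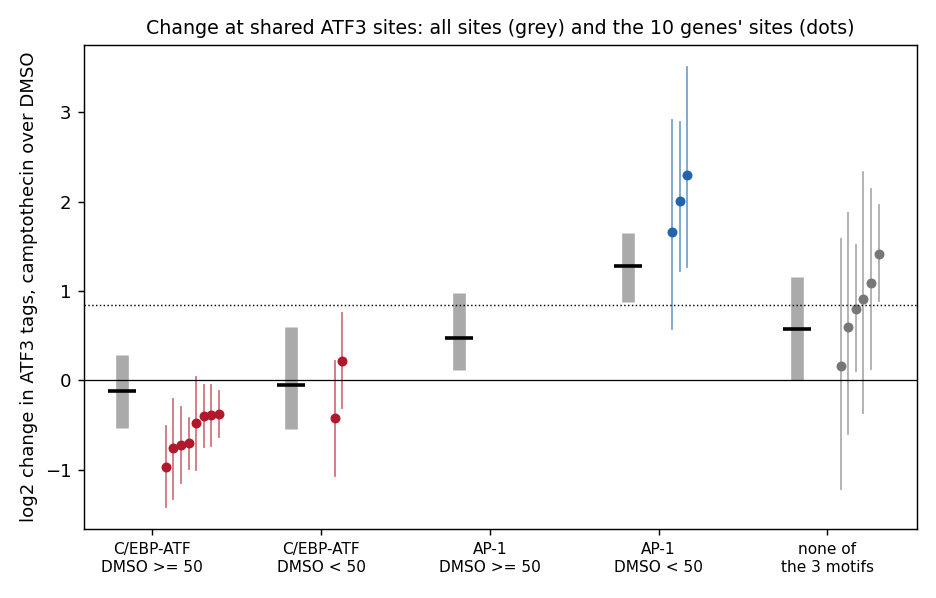
The vertical axis is the log2 change in ATF3 tags, ATF3-CPT over ATF3-Ctrl, by motif and by the ATF3-Ctrl normalized tag count. Grey bars span the quartiles of all shared sites with a black line at the median, dots are the sites of the 10 genes with 95% intervals, the site with only the ATF/CRE match is left out, and the dotted line is the genome median of 0.84. At a count of 50 or more all 8 composite element dots lie below 0. The 3 AP-1 dots all stand in the class under 50, the lowest of them at 1.66. The AP-1 class at 50 or more holds no site of the 10 genes, so their motifs cannot be compared at that level.

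Among the regulators, ATF4, the translationally controlled activator at the head of the pathway, had no peak near its own start before treatment. Its 1 shared site was 18.4 kb upstream of the start of its MANE Select transcript, the reference transcript of the annotation, and only 91 bp from the start of another gene, MIEF1. There the normalized tag count was 10.0 (95% exact Poisson interval 5.3 to 17.2) in ATF3-Ctrl and 21.3 (14.7 to 30) in ATF3-CPT. The ratio of 2.13 (1.09 to 4.40) passed the test (adjusted exact p = 0.0399), but not relative to the genome median (log2 0.24, adjusted exact p = 0.878). After CPT, 3 new sites were listed around the ATF4 start itself, with 6.5 at 1702 bp upstream, 11.6 at 308 bp upstream and 7.1 at 499 bp downstream in intron 1. These are low or middling levels, beside a median of 11 over the ATF3-CPT list.

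ATF5, a relative of ATF4 that is also controlled through translation, had 6.2 (2.7 to 12.2) in ATF3-Ctrl and 11.6 (6.9 to 18.4) in ATF3-CPT at a site in its intron 1. The site lay 8 bp from a start of NUP62, which is transcribed from the opposite strand. The ratio of 1.89 (0.78 to 5.01) did not pass the test (adjusted exact p = 0.264), and with 8 tags in ATF3-Ctrl the depth could not resolve a change of this size. New sites at ATF5 reached 7.8, 6.5 and 6.5, and the highest of them held the AP-1 match shown above.

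CEBPB, which encodes a C/EBP protein that can pair with ATF4, had 2 strong shared sites, 1 with fewer and 1 with more tags after CPT. In its 3′ UTR, at the composite element, the count was 120.5 (102.3 to 140.9) in ATF3-Ctrl and 91.9 (77.4 to 108.3) in ATF3-CPT, a ratio of 0.76 (0.60 to 0.96, adjusted exact p = 0.0436). With the findPeaks score this site did not pass (log2 -0.41, adjusted exact p = 0.0816). At a site 3143 bp upstream of the start it was 30.9 (22.1 to 42.1) and 82.2 (68.5 to 97.8), a ratio of 2.66 (1.85 to 3.90, adjusted exact p = 1.36e-07). The upstream increase did not pass relative to the genome median (log2 0.57, adjusted exact p = 0.117). The upstream peak held none of the motifs as an exact match. With 1 mismatch, the same bases matched ATF/CRE (TTACGTCA) and, on the minus strand, the C/EBP-ATF element (TGACGTAA). They are in capitals here.
CEBPB upstream, chr20:48804194-48804223, plus strand: aaaacaagggcTTACGTCAtcctagcttgc
New sites at 18.8 and 18.3 kb upstream each had 5.8.

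DDIT3, which encodes the pro-apoptotic factor CHOP, had a single ATF3 site in its window. It lay 336 bp upstream of the MANE Select start and 140 bp from the start of MBD6, a gene on the opposite strand. The count was 115.1 (97.3 to 135.1) in ATF3-Ctrl and 87.3 (73.2 to 103.4) in ATF3-CPT, which placed the site above 99.2% and 98.4% of all peaks of the lists or level with them. The ratio was 0.76 (0.60 to 0.96, adjusted exact p = 0.0441), and with the findPeaks score the site did not pass (log2 -0.41, adjusted exact p = 0.148). The whole shared interval is given on the strand of DDIT3, with the composite element in capitals.
DDIT3, chr12:57914550-57914695, minus strand: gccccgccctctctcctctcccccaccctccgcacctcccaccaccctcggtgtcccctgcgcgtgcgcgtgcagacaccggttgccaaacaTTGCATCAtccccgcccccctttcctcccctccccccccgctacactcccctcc

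XBP1, the factor activated by IRE1-dependent splicing in the unfolded protein response, had its main site in intron 1, 1200 bp from its start. The count was 41.7 (31.3 to 54.4) in ATF3-Ctrl and 48.5 (38.2 to 60.8) in ATF3-CPT, a ratio of 1.16 (0.81 to 1.68) that did not pass the test (adjusted exact p = 0.562). A change within that interval was not detectable at this depth. It was the only composite element site with a higher count after CPT. A new site 9 bp from the start had 8.4. The intronic peak, on the strand of XBP1, carried its pair of elements near its ends.
XBP1, chr22:29195323-29195454, minus strand: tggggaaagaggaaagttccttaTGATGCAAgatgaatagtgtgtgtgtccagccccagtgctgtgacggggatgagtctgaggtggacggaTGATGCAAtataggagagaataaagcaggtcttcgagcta

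Of the feedback genes, PPP1R15A, which encodes the phosphatase subunit GADD34 that reverses eIF2alpha phosphorylation, had 3 sites, all of them weak before treatment and all with higher values after it. In intron 1 the count was 7.0 (3.2 to 13.2) in ATF3-Ctrl and 34.3 (25.7 to 44.9) in ATF3-CPT, a ratio of 4.93 (2.41 to 11.4, adjusted exact p = 2.83e-06), the largest at any of the 20 shared sites. It passed relative to the genome median too (log2 1.46, adjusted exact p = 0.0189). In intron 2 the counts were 7.0 (3.2 to 13.2) and 22 (15.2 to 30.7), a ratio of 3.16 (1.49 to 7.5, adjusted exact p = 0.00354) that did not pass relative to the median (adjusted exact p = 0.323). Both intron sites held AP-1. At the promoter, with the ATF/CRE match, they were 12.4 (7.1 to 20.1) and 20.1 (13.6 to 28.5), and the ratio of 1.62 (0.86 to 3.18) did not pass (adjusted exact p = 0.231).

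TRIB3, which encodes a pseudokinase that restrains ATF4 and CHOP, had the most sites, 5 of them shared and 5 new. The annotation gives it an early start 17925 bp upstream of the MANE Select start, and its sites spread over both. At the MANE Select start, where exon 1 carries the 33-bp repeat with its 3 composite elements in the 5′ UTR, the count was 87.3 (71.9 to 104.9) in ATF3-Ctrl and 53.1 (42.2 to 65.8) in ATF3-CPT, a ratio of 0.61 (0.45 to 0.82, adjusted exact p = 0.00238). At the site 8.8 kb upstream, with a single element, the counts were 52.5 (40.8 to 66.6) and 31.1 (22.9 to 41.2), a ratio of 0.59 (0.40 to 0.87, adjusted exact p = 0.0134). Neither site passed with the findPeaks score (adjusted exact p = 0.0678 at the start and 0.0617 upstream). At the early start, also with an element, they were 54.1 (42.1 to 68.3) and 38.8 (29.6 to 50), and the ratio of 0.72 (0.50 to 1.03) did not pass (adjusted exact p = 0.118).

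Between these, a site 7.1 kb upstream without an exact composite element had 20.9 (13.7 to 30.3) in ATF3-Ctrl and 36.2 (27.4 to 47.0) in ATF3-CPT. With 1 mismatch allowed, the site held 3 matches to that element, 2 to ATF/CRE and 1 to AP-1. Its ratio of 1.74 (1.08 to 2.86, adjusted exact p = 0.0439) turned to a log2 change of -0.05 relative to the genome median (adjusted exact p = 0.969), and with the findPeaks score it did not pass (adjusted exact p = 0.0588). The last shared site, 33.0 kb upstream and 626 bp from the start of NRSN2, had 7.7 (3.7 to 14.2) and 11.6 (6.9 to 18.4), a ratio of 1.51 (0.66 to 3.66, adjusted exact p = 0.475). The 5 new TRIB3 sites had between 5.8 and 25.2, and AP-1 lay in 3 of them, including the highest pair at 25.2 and 22. At this gene, new sites with AP-1 stood among sites with composite elements whose counts were lower after CPT.

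**Figure D4:**
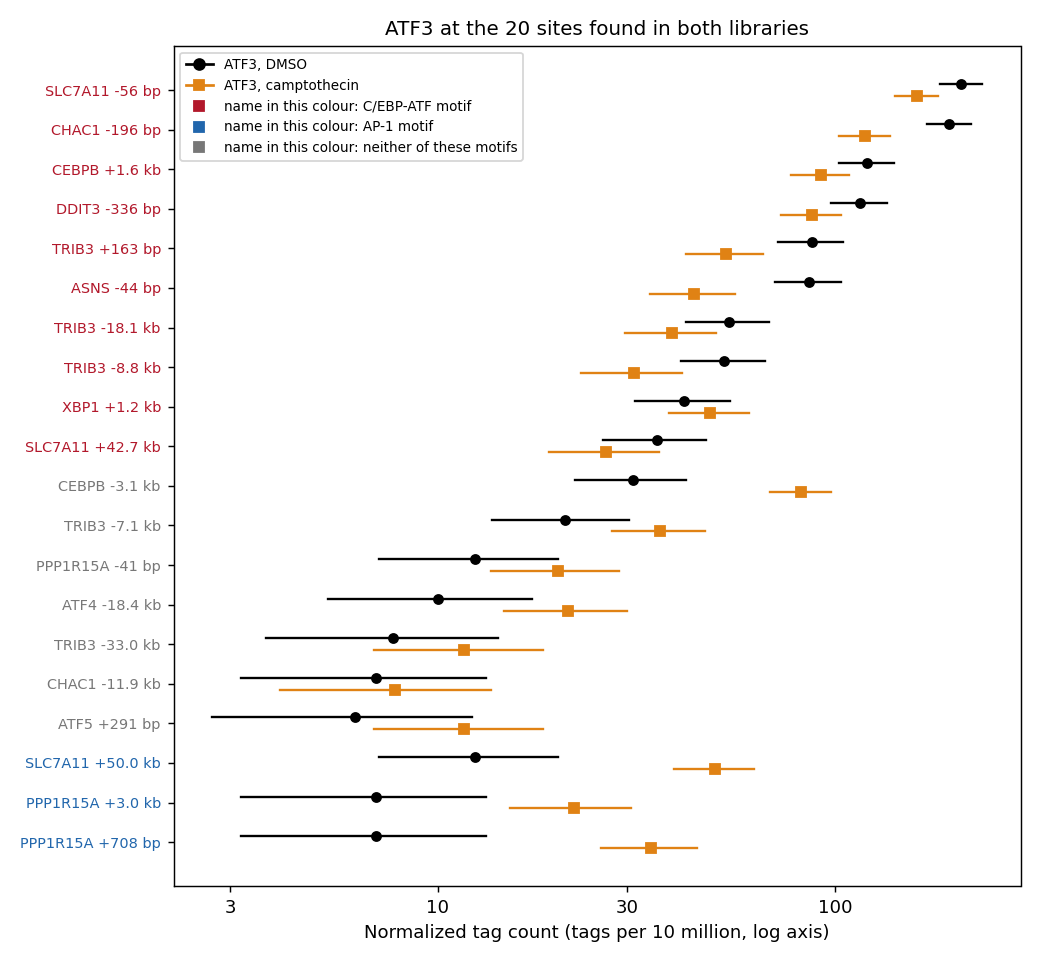
Points give the normalized tag count of each of the 20 shared sites on a log axis, in ATF3-Ctrl (black circles) and ATF3-CPT (orange squares), with lines for 95% exact Poisson intervals. Names carry the gene and the distance from its start, coloured by motif. In the C/EBP-ATF group the orange square lies to the left of the black circle at 9 of 10 sites, and in the AP-1 group it lies to the right at 3 of 3.

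Among the effectors, ASNS, which makes asparagine, had the largest fall. At its promoter, 44 bp upstream of the MANE Select start, the count was 85.7 (70.5 to 103.2) in ATF3-Ctrl and 44.0 (34.2 to 55.8) in ATF3-CPT. The intervals did not overlap, and the ratio was 0.51 (0.37 to 0.70, adjusted exact p = 6.97e-05). With the findPeaks score ASNS still passed (log2 -0.76, adjusted exact p = 0.0106). In the coding part of exon 13, a weak peak of 10.0 (5.3 to 17.2) with a composite element was listed in ATF3-Ctrl only. It is the only site of the 37 that was not listed after CPT.

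CHAC1, which degrades glutathione, had the second-strongest site of the 10 genes, 196 bp upstream of its MANE Select start. The count was 193.9 (170.6 to 219.4) in ATF3-Ctrl and 119.0 (102.5 to 137.5) in ATF3-CPT, a ratio of 0.61 (0.51 to 0.75, adjusted exact p = 4.54e-06). It passed with the findPeaks score as well (log2 -0.53, adjusted exact p = 0.00989). In spite of the fall it stood at the 99.4th percentile of ATF3-CPT peaks, after the 99.7th in ATF3-Ctrl. A weak site 11.9 kb upstream had 7.0 (3.2 to 13.2) and 7.8 (4.0 to 13.6), a ratio of 1.12 (0.43 to 3.0, adjusted exact p = 0.915).

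SLC7A11, the cystine transporter subunit that supplies glutathione synthesis, had the strongest site of all, 56 bp upstream of its start. The count was 207.8 (183.7 to 234.1) in ATF3-Ctrl and 160.4 (141.1 to 181.7) in ATF3-CPT, at the 99.8th percentile of both lists. The ratio of 0.77 (0.65 to 0.92, adjusted exact p = 0.00976) did not pass with the findPeaks score (log2 -0.20, adjusted exact p = 0.394). That log2 change is scaled to library depth, while the scores of 138 and 143 themselves are not. Within intron 6, 2 shared sites differed in motif and in change. The one with a composite element had 35.5 (26.0 to 47.4) and 26.5 (19 to 36), a ratio of 0.75 (0.48 to 1.16, adjusted exact p = 0.301). The one with AP-1 had 12.4 (7.1 to 20.1) and 49.8 (39.3 to 62.3), a ratio of 4.03 (2.33 to 7.4, adjusted exact p = 1.97e-07), which passed relative to the genome median as well (log2 1.17, adjusted exact p = 0.0146). New sites with AP-1 lay in intron 2 (19.4) and intron 6 (17.5).

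The p53-antibody peak at SLC7A11 lay in intron 11, 64.9 kb from the start, away from every ATF3 site. Its count was 94.6 (63.9 to 135.1) in p53-CPT and 141.1 (93.7 to 203.9) in p53-KO, with a findPeaks score of 22 in both. The intervals overlapped, and the peak was present in cells without p53. Without peaks that overlap a p53-KO peak, no member had a p53-CPT peak.

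A further 66 genes, in 5 lists, were counted in the same way. The list called the ER branch holds genes of ER function and not only of the integrated stress response. An ATF3-Ctrl peak in the window was found for 12 of 12 eIF2alpha kinases and translation factors, 15 of 16 genes of amino acid synthesis and transport, 10 of 10 tRNA synthetases, 12 of 14 other ATF4 and CHOP targets and 13 of 14 genes of the ER branch. At a promoter, where 38.7% of all genes had an ATF3-Ctrl peak and 53.9% an ATF3-CPT peak, the numbers before and after CPT were 8 and 10 of 12, 14 and 15 of 16, 10 and 10 of 10, 12 and 11 of 14, and 9 and 12 of 14 in the same order. Among shared sites, the tRNA synthetase list, enzymes that load amino acids onto tRNA, had 8 of 18 sites with fewer tags and 4 with more (median log2 -0.31). Amino acid synthesis and transport had 8 of 30 with fewer and 7 with more (median 0.17). The eIF2alpha kinase and translation factor list, with no site of 15 falling and 6 rising, had a median of 0.81, beside 0.84 for the genome. Other ATF4 and CHOP targets had 4 of 30 with fewer and 11 with more (median 0.51), and the ER branch 2 of 25 with fewer and 5 with more (median 0.42).

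With the ATF3 antibody in ATF3-KO cells, where 11.4% of all genes had a peak in the window, the counts in that order were 2 of 12, 3 of 16, 2 of 10, 0 of 14 and 5 of 14. The 5 genes of the ER branch were ATF6, ERN1, DNAJB9, PDIA4 and SEC61B. In p53-CPT, against 21.8% of all genes, they were 1 of 12, 4 of 16, 1 of 10, 4 of 14 and 3 of 14, and in p53-KO, against 17.5%, 1 of 12, 6 of 16, 0 of 10, 1 of 14 and 0 of 14. The 4 other ATF4 and CHOP targets with a p53-CPT peak were DDIT4, GDF15, TNFRSF10B and HMOX1, and HMOX1 also had a peak in p53-KO. Amino acid synthesis and transport had more genes with a peak in p53-KO than in p53-CPT.

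The 2 genes of each list with the highest promoter score in ATF3-CPT were read in the same way. YARS1, the tyrosyl-tRNA synthetase, had 267.2 in ATF3-Ctrl and 126.8 in ATF3-CPT, a ratio of 0.48 (0.40 to 0.57, adjusted exact p = 2.42e-15). AARS1, the alanyl-tRNA synthetase, whose peak lay nearer to a start of DDX19B, had 167.6 and 122.3, a ratio of 0.73 (0.60 to 0.89, adjusted exact p = 0.00511). GPT2, a mitochondrial alanine transaminase, had 74.9 and 49.8, a ratio of 0.67 (0.49 to 0.91, adjusted exact p = 0.019). These 3 genes all had fewer tags after CPT.

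DDIT4, an inhibitor of mTORC1, had 93.5 and 56.3, a ratio of 0.60 (0.45 to 0.80, adjusted exact p = 0.00111). HERPUD1, a component of ER-associated degradation, had the highest count of the genes named, 302.8 and 249.7, with a ratio of 0.83 (0.72 to 0.95, adjusted exact p = 0.0191). Its findPeaks score, which is not adjusted for depth, was 168 in ATF3-Ctrl and 180 in ATF3-CPT. As ATF3-CPT held more tags (15457013 against 12947516), these scores alone do not show a rise at HERPUD1. The scores at YARS1, AARS1, GPT2 and DDIT4 were lower after CPT. The test with the findPeaks score is not given for these further genes. PPP1R15B, the constitutive counterpart of PPP1R15A, had 200 and 165.6, and its ratio of 0.83 (0.69 to 0.99) did not pass (adjusted exact p = 0.0683). In the other direction, SEC61B, a subunit of the ER translocon, whose peak lay nearer to a start of ALG2, had 10.8 and 33.0, a ratio of 3.05 (1.66 to 5.97, adjusted exact p = 0.000386). The ratios at SLC7A1 (0.86, 0.60 to 1.24, adjusted exact p = 0.564), EIF2B1 (1.25, 0.93 to 1.67, adjusted exact p = 0.228) and STC2 (1.3, 0.96 to 1.75, adjusted exact p = 0.149) did not pass. EIF2B1 and SEC61B also had an ATF3-KO peak in their windows. Whether it overlapped the promoter peaks read here is not given.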

How the data were processed

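Peak lists from 5 ChIP-seq libraries of HCT116 cells were used. Per the submitters' processing notes, the authors mapped reads to hg19 with BWA 0.6.1 and ran the peak caller of HOMER 4.1 on every library by itself. Per the file headers, peaks passed at an FDR of 0.001, at 4.0 times the tags of the surrounding 10000 bp, and at a Poisson p of 1e-04 against that region. The normalized tag count, as deposited, is a signal scaled by the authors to 10000000 tags, and the deposited findPeaks score counts at most 1 tag per position without adjustment for depth. The authors also deposited a focus ratio (a fraction), a fold over the local region, its p-value and a clonal fold, none of which entered a test here.

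Tags were recovered from the normalized tag counts, and 100.0% came out within 0.1 of a whole number. Sites were shared when peaks overlapped by at least 1 bp. Shared sites were compared by a two-sided conditional exact binomial test with Benjamini-Hochberg adjustment over all of them. Ratios have exact 95% intervals and levels exact Poisson intervals. Gene windows, starts and UTRs came from GENCODE release 44 as lifted to GRCh37, which hg19 follows. XBP1 has no MANE Select mark there, so its outermost start was used. Promoters were within 2 kb of a start. Sequences and motif matches were read from GRCh37, and shares over all peaks used chromosomes 1 to 22, X and Y. Python 3.11.15, scipy 1.17.1, numpy 2.4.6, pandas 2.3.3 and pysam 0.24.0 were used, and the overlap, test and motif search were tested on simulated data.

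The genes and the 5 further lists were chosen with earlier results of these data known. All 10 genes are named, and from each list the 2 genes with the highest findPeaks score of a promoter peak in ATF3-CPT. Classes by motif together with level were added after the values had been seen. Alternatives covered the window, the start site, the score, the overlap, the value compared, the scaling, knockout peaks, the motif search and the promoter width.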

Additional observations from a re-analysis of the deposited data

How the results depend on the processing

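Limits come first. There was 1 library per condition, so nothing here measures variation between cultures, and binding under the score thresholds was not detectable. A site with 9 tags before treatment has a wide interval, and the new sites carry no ATF3-Ctrl value. No paired analysis was possible because each group held 1 library.

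Of the 7 sites with fewer tags, 2 passed with the findPeaks score. After centring on the median of all shared sites 9 sites had fewer tags, the 7 and a site each at TRIB3 and SLC7A11. Of the 6 sites with more tags, 2 passed after centring, and the change at the TRIB3 site 7.1 kb upstream turned to -0.047. A score of at least 20 in both lists left 12 shared sites, 10 found after CPT only and 0 found before it only. A reach of 50 kb upstream raised the sites found after CPT only to 32 and those found before it only to 3, and a reciprocal overlap of 50% raised the latter to 3 as well. With 1 mismatch allowed, ATF/CRE was found in 5 sites, AP-1 in 21 and C/EBP-ATF in 17. Removing peaks that were also found in knockout cells took the p53-CPT count from 1 gene to 0. For single sites, the call was kept in 48 of 60 recomputations, lost in 10 and gained in 2. These include the removal of sites with an ATF3-KO peak for each of the 20 shared sites. That removal could hardly change a call, since none of the 37 sites overlapped such a peak. All losses and gains came from the findPeaks score and the centring. The other 41 recomputed counts stayed within 1.5 times their value. The causes were not tested, apart from the fewer or more peaks that a stricter score or a wider window leaves by construction.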
